A study of Mus musculus with 6 samples.

Results

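Collagen genes were compared between hearts of mice with 1 disrupted copy of Grk2 and hearts of wild-type mice. The members were all genes whose symbol is Col, a number, the letter a and a number, measured by a probe set annotated to that gene alone: 42 of 18193 named genes, read by 82 probe sets. A gene was represented by its brightest probe set, by mean over the 6 arrays, while the other 40 served as a check. By the structures their chains form, 11 were fibrillar, 8 belonged to basement membranes, 5 to beaded filaments and 9 to the fibril-associated collagens. A further 3 were short-chain network collagens, 4 had a membrane-spanning segment, and Col7a1 and Col26a1 fitted none of these groups. The symbols Col6a6 and Col28a1 of the RefSeq gene table were not analysed here.

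The GRK2+/- mice carried the targeted allele Adrbk1tm1Mca (Adrbk1 is the former symbol of Grk2, the kinase that switches off beta-adrenergic and related receptors) on C57BL/6J after more than 20 generations of backcrossing. Controls were wild-type C57BL/6J littermates. All mice were 9 months old, with 3 hearts per genotype and 1 Affymetrix array per heart. All hearts were arrested with KCl under isoflurane, and the upper part of each was used. The labels do not say which chambers it held, and they name no other allele or agent. Grk2 itself was not analysed here, so the genotype was not checked by its own transcript. The 10 cardiomyocyte markers had a mean log2 level of 14.36 to 14.46 in every heart.

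Collagens are secreted proteins of 3 chains wound into a triple helix. In the heart, fibroblasts make most of the fibrillar types I and III, which form the stiff network around muscle bundles. Type IV forms the sheet-like basement membrane around each myocyte and vessel, and type VI forms beaded filaments that link the sheets to the fibrils. Several of these proteins need products of more than 1 gene: type I of Col1a1 and Col1a2, type IV mostly of Col4a1 and Col4a2, and type VI of Col6a1, Col6a2 and Col6a3.

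Promoter sequences of some chains on which the results turn are shown here. The main type IV genes, Col4a1 and Col4a2, kept the same order of hearts, and so did Col4a4. The part of promoters in that order was not tested. RefSeq windows of 300 bases (250 before to 50 after the annotated start, build GRCm38.p6) were found for 33 of the 42 genes. Col4a1 and Col4a2 lie head to head on opposite strands, and their windows share 78 bases, chr8:11312777-11312854. Col4a1 is on the minus strand at chr8:11312777-11313076 and Col4a2 on the plus strand at chr8:11312555-11312854. Capitals in the next pair mark the shared stretch, read 5′ to 3′ on the strand of each gene, so that each is the reverse complement of the other.
Col4a1: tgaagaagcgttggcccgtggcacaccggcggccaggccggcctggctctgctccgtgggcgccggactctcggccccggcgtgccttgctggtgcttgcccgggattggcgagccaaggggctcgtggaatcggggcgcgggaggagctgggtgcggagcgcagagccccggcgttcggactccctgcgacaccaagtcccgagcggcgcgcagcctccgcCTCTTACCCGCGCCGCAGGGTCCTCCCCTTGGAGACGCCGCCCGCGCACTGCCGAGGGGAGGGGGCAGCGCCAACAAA
Col4a2: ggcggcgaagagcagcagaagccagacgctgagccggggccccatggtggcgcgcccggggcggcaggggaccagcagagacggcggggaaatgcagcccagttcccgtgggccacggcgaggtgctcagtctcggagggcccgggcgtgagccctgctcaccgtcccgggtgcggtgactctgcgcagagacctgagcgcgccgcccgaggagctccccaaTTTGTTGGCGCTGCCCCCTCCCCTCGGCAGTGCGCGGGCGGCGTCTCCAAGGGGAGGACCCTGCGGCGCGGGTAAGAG
The other windows are those of Col1a2 (chr6:4505368-4505667, plus strand), Col3a1 (chr1:45311288-45311587, plus strand) and Col6a1 (chr10:76725995-76726294, minus strand). In these 3, capitals mark matches, on either strand and counted for each motif separately, to the CCAAT box (CCAAT), the GC box (GGGCGG) and the TATA box (TATAAA).
Col1a2: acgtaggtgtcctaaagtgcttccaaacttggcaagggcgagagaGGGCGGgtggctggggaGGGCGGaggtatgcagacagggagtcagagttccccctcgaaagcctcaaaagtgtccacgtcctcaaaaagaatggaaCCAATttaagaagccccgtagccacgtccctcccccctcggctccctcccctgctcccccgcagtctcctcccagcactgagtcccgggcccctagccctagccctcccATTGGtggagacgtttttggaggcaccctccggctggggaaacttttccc
Col3a1: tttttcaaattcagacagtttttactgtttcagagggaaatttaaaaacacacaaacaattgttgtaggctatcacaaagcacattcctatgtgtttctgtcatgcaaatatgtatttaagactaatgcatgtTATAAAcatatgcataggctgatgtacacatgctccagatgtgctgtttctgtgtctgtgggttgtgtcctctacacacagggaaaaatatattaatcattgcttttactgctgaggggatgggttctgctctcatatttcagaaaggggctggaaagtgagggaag
Col6a1: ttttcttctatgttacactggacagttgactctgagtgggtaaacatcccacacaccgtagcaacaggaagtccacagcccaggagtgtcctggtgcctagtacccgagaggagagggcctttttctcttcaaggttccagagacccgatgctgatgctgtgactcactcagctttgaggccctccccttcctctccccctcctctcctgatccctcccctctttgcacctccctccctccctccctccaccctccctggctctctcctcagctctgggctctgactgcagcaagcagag
Col1a2 held CCAAT once on each strand and GGGCGG 2 times, Col3a1 held TATAAA once, and Col6a1 held none of the 3 motifs in this window. Both windows of the type IV pair held CCAAT and GGGCGG but no TATAAA. Over all 38 collagen windows of the table, 60.5% held GGGCGG, 34.2% CCAAT and 13.2% TATAAA. The corresponding shares over all 32851 windows were 35.7%, 37.4% and 13.6%. A match is a run of letters and not a shown binding site.

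Values below are deposited log2 probe set signals, and a difference is the mean of GRK2+/- hearts less that of wild-type hearts, in log2 units, with limma's standard error (SE, n = 3 hearts per group). No collagen gene passed an adjusted p of 0.05 with limma over all 18193 genes, among which 0 genes passed, and the smallest adjusted p of a collagen was 0.254. At an unadjusted p under 0.05 there were 3 collagens of 42 (7.14%): Col1a1 and Col6a1 were higher and Col25a1 lower in GRK2+/- hearts. Over all named genes 14.0% reached that level (6.30% higher, 7.70% lower). Under 16 alternatives the share among collagens exceeded that among all genes in 4, among them those that left out GRK2+/- heart 3 or wild-type heart 2 and that among genes at or above the median level. In whole tissue, fewer cells of a type and less RNA per cell cannot be told apart. The groups did not overlap for 5 collagens (11.9%), against 19.1% of all genes. The median difference of the 42 was -0.05, with 15 above 0 and 27 below, beside a median of -0.02 over all genes, of which 43.5% were above 0. The smallest two-sided p of an exact permutation test at this size, 3 against 3, is 0.1.

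**Figure D1:**
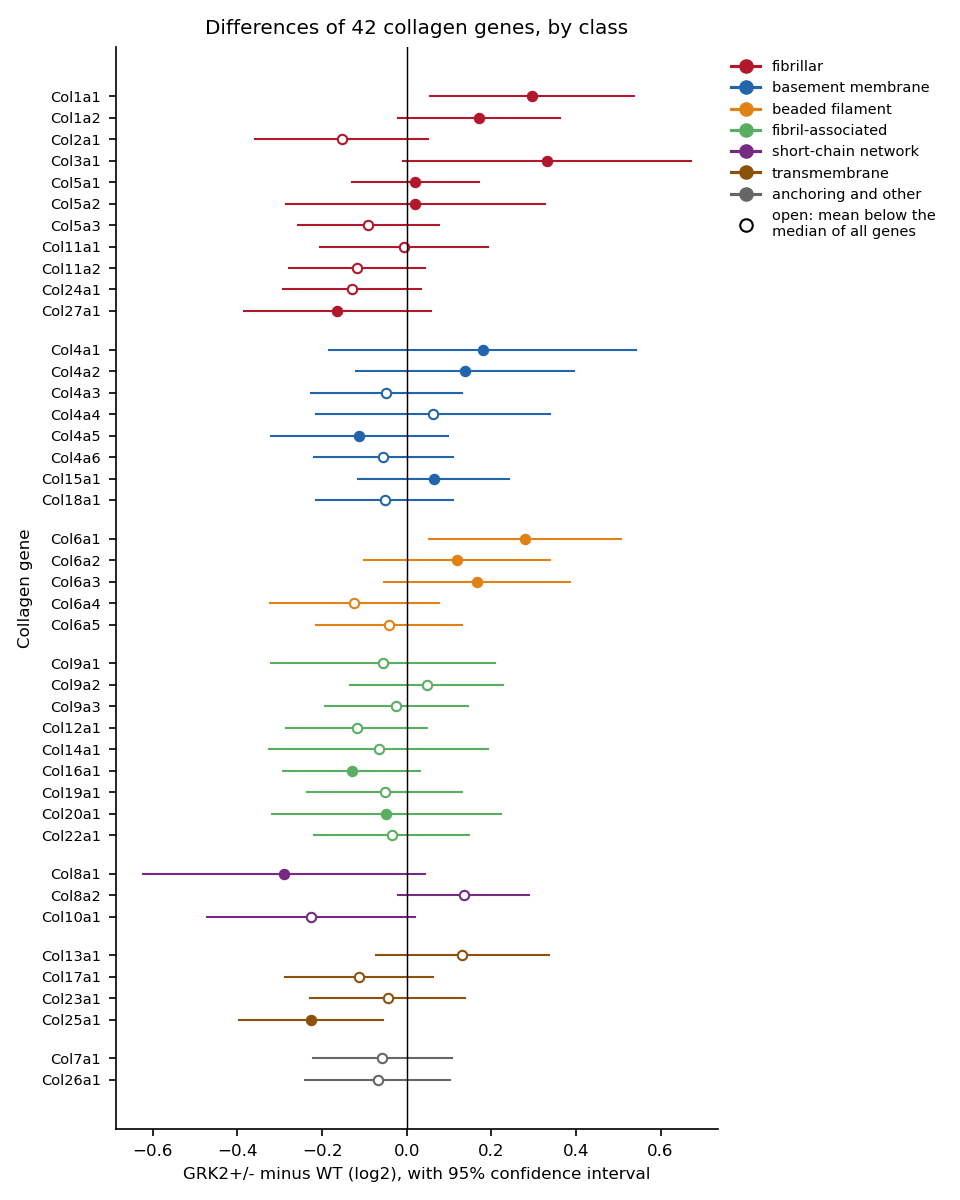
Difference between GRK2+/- and wild-type hearts (log2, x axis) for each of the 42 collagen genes (y axis), coloured by class; points are limma estimates, lines 95% confidence intervals, and open points have a mean signal below the median of all genes. The intervals of 3 genes, Col1a1, Col6a1 and Col25a1, exclude 0.

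The fibrillar class held the largest difference, that of Col3a1, and its 3 main genes were each higher on average in GRK2+/- hearts, while the minor chains lay near or below 0. Over the 11 genes the median difference was -0.01, with 5 above 0 and 6 below. An unadjusted p under 0.05 was reached by 1 of the 11 (9.09%, beside 14.0% of all genes).

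Col1a1, a chain of type I collagen, the main tensile fibre of the heart, read 8.60, 8.51 and 8.32 in GRK2+/- hearts 1, 2 and 3 and 8.26, 8.32 and 7.96 in wild-type hearts 1, 2 and 3. The 3 GRK2+/- values lay above the wild-type range, but GRK2+/- heart 3 barely exceeded wild-type heart 2, and wild-type heart 3 was the lowest. The difference was 0.30 ± 0.11 (limma unadjusted p = 0.0206, adjusted p = 0.276), a 1.23-fold higher level with a 95% confidence interval of 1.04 to 1.45. Its second probe set gave 0.20, again without overlap.

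Col1a2, the partner chain of type I collagen, read 10.32, 10.40 and 10.36 in GRK2+/- hearts 1, 2 and 3 and 10.16, 10.35 and 10.05 in wild-type hearts 1, 2 and 3. Wild-type heart 2 fell within the GRK2+/- range and wild-type heart 3 was the lowest. The difference was 0.17 ± 0.09 (limma unadjusted p = 0.0754, adjusted p = 0.402, interval -0.02 to 0.36). A second probe set of the gene gave 0.33 without overlap, at an unadjusted p of 0.0154 in limma over all probe sets, and the third, near the bottom of the scale, gave 0.13, also without overlap.

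Col3a1, the single chain of type III collagen, which co-assembles with type I in pliable fibres, read 10.47, 10.71 and 10.47 in GRK2+/- hearts 1, 2 and 3 and 10.33, 10.50 and 9.82 in wild-type hearts 1, 2 and 3. GRK2+/- heart 2 was the highest and wild-type heart 3 the lowest by a wide gap, and wild-type heart 2 lay above GRK2+/- hearts 1 and 3. The difference of 0.33 ± 0.15 had an interval of -0.01 to 0.67 (limma unadjusted p = 0.0555, adjusted p = 0.368), that is, from 0.993-fold to 1.59-fold. The spread of Col3a1 within groups was wider than that of 98.7% of all genes. The log2 ratio of Col3a1 to Col1a1, set to 0 at the wild-type mean, averaged 0.03 ± 0.17 in GRK2+/- hearts against a spread of 0.16 in wild-type hearts (SD, n = 3 each), so the ratio of types III and I differed by less than the spread between hearts.

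Type V collagen starts fibrils and sets their width. Col5a1 read 8.59, 8.56 and 8.50 in GRK2+/- hearts 1, 2 and 3 and 8.51, 8.59 and 8.49 in wild-type hearts 1, 2 and 3, a narrow band in which the groups overlapped fully. Its difference of 0.02 ± 0.07 had an interval of -0.13 to 0.17. Col5a2, its partner, read 8.36, 8.69 and 8.20 in GRK2+/- hearts 1, 2 and 3 and 8.37, 8.63 and 8.20 in wild-type hearts 1, 2 and 3. Heart 2 was the highest in both groups, and the spread between hearts of a group exceeded the difference of 0.02 ± 0.14 (limma unadjusted p = 0.882, adjusted p = 0.96).

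The minor fibrillar chains all had negative estimates. They were the type V chain Col5a3 (-0.09 ± 0.07), the cartilage collagen Col2a1 (-0.15 ± 0.09), the cartilage-type chains Col11a1 and Col11a2 (-0.12 ± 0.07 for the latter), Col24a1 (-0.13 ± 0.07) and Col27a1 (-0.16 ± 0.10), and limma's unadjusted p lay between 0.107 and 0.949. Groups of Col24a1 did not overlap, but its signal of 3.67 to 3.96 lay at the very bottom of the scale. For Col5a3 a dimmer probe set gave -0.27 at an unadjusted p of 0.00898 in limma, with no overlap, where the chosen one gave -0.09.

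**Figure D2:**
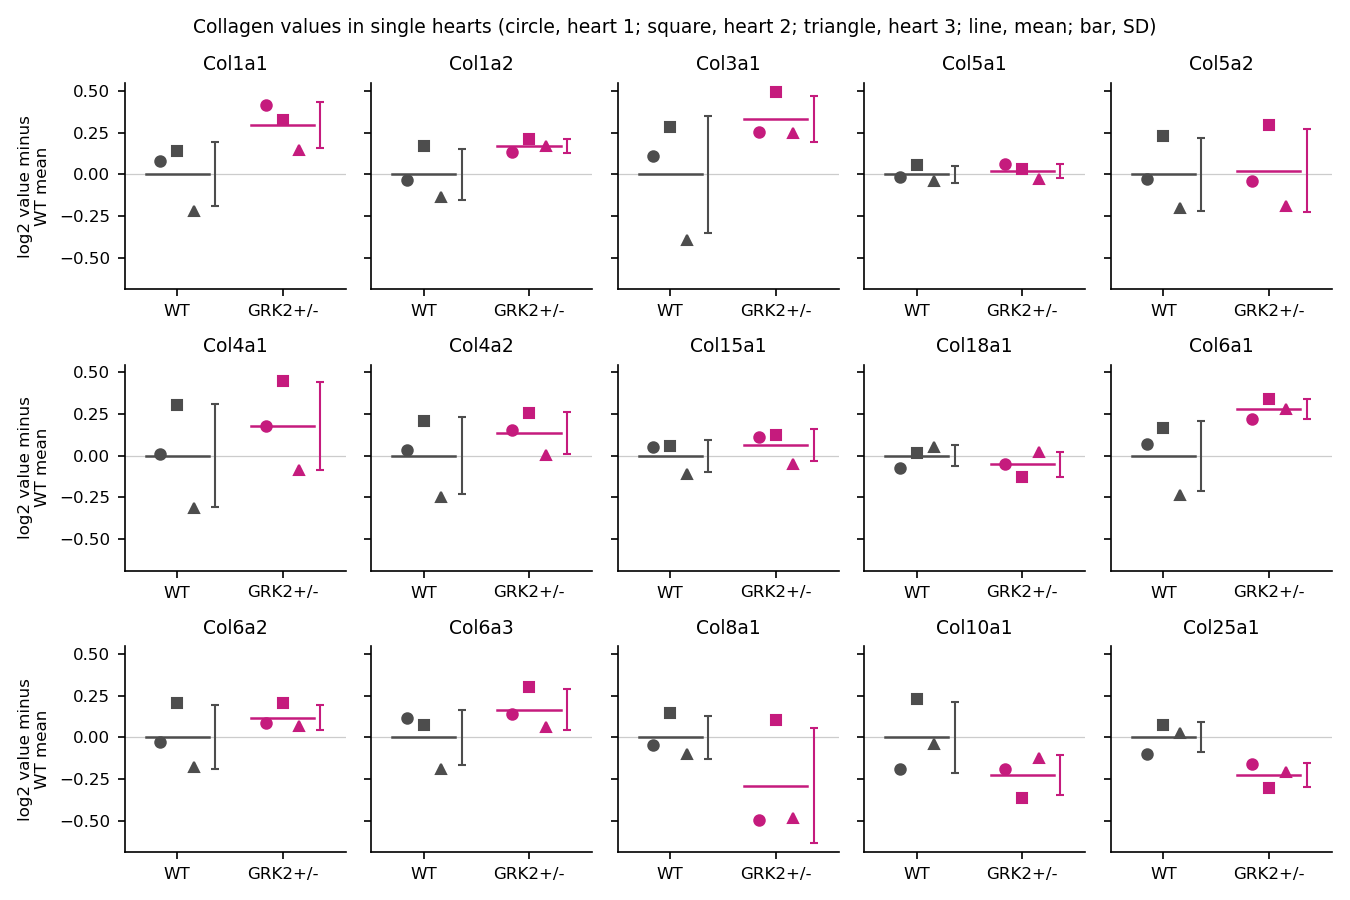
Log2 value of 15 collagen genes in single hearts, minus the wild-type mean of the gene (y axis), for wild-type (grey) and GRK2+/- (pink) hearts; symbols mark hearts 1 to 3, short lines the group mean and bars the SD (n = 3). Wild-type heart 3 (grey triangle) is the lowest point in 11 of the first 12 panels, and only Col1a1, Col6a1 and Col25a1 show no overlap between groups.

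No basement membrane collagen separated the genotypes. None of the 8 had an unadjusted p under 0.05 with limma (smallest adjusted p 0.613), beside 14.0% of all genes. None was without overlap, beside 19.1% of all genes. A count of 0 in 8 genes was not tested against these shares. Differences of 4 lay above 0 and of 4 below, with a median of 0.01.

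Col4a1, a chain of the main type IV network around myocytes and capillaries, read 10.93, 11.20 and 10.67 in GRK2+/- hearts 1, 2 and 3 and 10.76, 11.06 and 10.44 in wild-type hearts 1, 2 and 3. Col4a2, its partner, read 11.34, 11.45 and 11.20 in GRK2+/- hearts 1, 2 and 3 and 11.23, 11.40 and 10.94 in wild-type hearts 1, 2 and 3. The 6 hearts stood in the same order for both genes: GRK2+/- heart 2, wild-type heart 2, GRK2+/- heart 1, wild-type heart 1, GRK2+/- heart 3 and wild-type heart 3, from high to low. The 2 genotypes thus alternated along that order, and each wild-type heart stood just below the GRK2+/- heart of its number. The differences of 0.18 ± 0.16 and 0.14 ± 0.12 were smaller than the range between hearts of 1 genotype. Limma gave an unadjusted p of 0.295 and 0.26, and of 0.0415 and 0.119 with the replicate number as a block (adjusted p = 0.377 and 0.5). The labels do not say if numbers pair hearts. Within-group spread of Col4a1 was wider than that of 99.0% of all genes. The ratio of Col4a1 to Col4a2, whose promoter windows share the stretch printed above, averaged 0.04 ± 0.14 in GRK2+/- hearts relative to the wild-type mean (wild-type SD 0.08).

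The chains of the more restricted type IV networks behaved differently from each other. Col4a4 had the same order of hearts as Col4a1 and Col4a2 and a difference of 0.06 ± 0.12. Col4a3 (-0.05 ± 0.08), which lies beside Col4a4 in the genome and pairs with it in the kidney and inner ear, did not share that order. Col4a5 (-0.11 ± 0.09) and Col4a6 (-0.06 ± 0.07) had estimates below 0, with unadjusted p of 0.258 and 0.471 in limma.

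Col15a1 and Col18a1 encode collagens of basement membrane zones, and fragments of their products, among them endostatin from Col18a1, restrain vessel growth. Col15a1 read 7.77, 7.78 and 7.61 in GRK2+/- hearts 1, 2 and 3 and 7.71, 7.72 and 7.55 in wild-type hearts 1, 2 and 3. The groups overlapped, wild-type heart 3 was again the lowest, and the difference was 0.06 ± 0.08. Col18a1 read 7.04, 6.96 and 7.12 in GRK2+/- hearts 1, 2 and 3 and 7.02, 7.11 and 7.15 in wild-type hearts 1, 2 and 3. Here wild-type heart 3 was the highest of the 6, and the difference of -0.05 ± 0.07 had an interval of -0.21 to 0.11.

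Among the beaded filament collagens the 3 chains of classical type VI collagen were all higher on average in GRK2+/- hearts, Col6a1 most. Col6a1 read 9.41, 9.53 and 9.47 in GRK2+/- hearts 1, 2 and 3 and 9.26, 9.35 and 8.95 in wild-type hearts 1, 2 and 3. The lowest GRK2+/- heart lay above the highest wild-type heart by a narrow margin, and wild-type heart 3 stood well below all others. The difference was 0.28 ± 0.10 (limma unadjusted p = 0.0212, adjusted p = 0.278), or 1.21-fold with an interval of 1.04 to 1.42, and 1 probe set measured the gene. Col6a2 read 10.23, 10.35 and 10.21 in GRK2+/- hearts 1, 2 and 3 and 10.11, 10.35 and 9.97 in wild-type hearts 1, 2 and 3. Wild-type heart 2 stood level with the highest GRK2+/- heart, and the difference was 0.12 ± 0.10. Col6a3 read 8.64, 8.81 and 8.56 in GRK2+/- hearts 1, 2 and 3 and 8.62, 8.58 and 8.32 in wild-type hearts 1, 2 and 3. Its groups overlapped as well, with a difference of 0.17 ± 0.10 (limma unadjusted p = 0.123). Relative to Col6a2, Col6a1 averaged 0.16 ± 0.04 above the wild-type ratio in GRK2+/- hearts, against a wild-type spread of 0.09 (SD, n = 3 each). The remaining members Col6a4 (-0.12 ± 0.09) and Col6a5 (-0.04 ± 0.08) had dim signals and estimates below 0.

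Fibril-associated collagens, which decorate the surface of fibrils, had 0 of 9 genes at an unadjusted p under 0.05 by limma, beside 14.0% of all genes. Their differences ran from -0.13 for Col16a1, a partner of fibrils at cell contacts, to 0.05 for Col9a2, a chain best known from cartilage, with 8 of 9 below 0. Above 0 were 11.1% of the 9, 43.5% of all genes and 34.5% of genes below the median level. Only 2 of the 9 stood at or above that level. Col12a1 and Col14a1, the fibril-associated collagens typical of dense connective tissue, differed by -0.12 ± 0.07 and -0.07 ± 0.12.

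Col8a1, a chain of the network collagen of vessel walls and of remodelling heart, read 8.25, 8.85 and 8.26 in GRK2+/- hearts 1, 2 and 3 and 8.70, 8.89 and 8.64 in wild-type hearts 1, 2 and 3. GRK2+/- hearts 1 and 3 lay far below all other hearts, whereas GRK2+/- heart 2 lay among the wild-type values. The difference was -0.29 ± 0.15 (limma unadjusted p = 0.0807, adjusted p = 0.41, interval -0.62 to 0.04), the most negative of the collagens, and its other probe sets gave -0.17 and -0.25. Without GRK2+/- heart 2 it was -0.49 at a limma unadjusted p of 0.000474 and an adjusted p of 0.157. It was -0.19 without GRK2+/- heart 1 (limma unadjusted p = 0.266), -0.19 without GRK2+/- heart 3 (0.252) and -0.22 when wild-type heart 2 was left out (0.237). Col8a2, its partner, had a difference of 0.13 ± 0.07 and no overlap, at a signal of 4.74 to 4.98 near the bottom of the scale. Col10a1, the collagen of growth plate cartilage, read 4.99, 4.82 and 5.05 in GRK2+/- hearts 1, 2 and 3 and 4.99, 5.41 and 5.14 in wild-type hearts 1, 2 and 3. That dim signal overlapped between groups and differed by -0.23 ± 0.11 (limma unadjusted p = 0.0674, adjusted p = 0.39). Its difference was -0.32 without wild-type heart 1 (limma unadjusted p = 0.0174) and -0.11 without wild-type heart 2 (0.278).

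Col25a1, a collagen with a membrane-spanning segment known from neurons and from the nerve supply of muscle, read 7.60, 7.46 and 7.55 in GRK2+/- hearts 1, 2 and 3 and 7.66, 7.84 and 7.79 in wild-type hearts 1, 2 and 3. All GRK2+/- values lay below all wild-type values. The difference of -0.23 ± 0.08 (limma unadjusted p = 0.014, adjusted p = 0.254) corresponds to a 0.855-fold level, with an interval of 0.760 to 0.961, and the gene's dimmer probe set gave -0.09 with overlap. Of the other membrane-spanning collagens, Col13a1 of cell junctions and the neuromuscular synapse differed by 0.13 ± 0.09 and the hemidesmosome collagen Col17a1 by -0.11 ± 0.08. Col7a1, which forms anchoring fibrils of skin, and Col26a1 differed by -0.06 ± 0.07 and -0.07 ± 0.08.

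Hearts of the same genotype differed from each other in a shared way. Over 12 chains taken as the main collagens of heart matrix (those of types I, III and VI, Col5a1, Col5a2, Col4a1, Col4a2, Col15a1 and Col18a1), wild-type heart 3 was the lowest of the 6 hearts for 11, the exception being Col18a1. Across all named genes it was the lowest for 16.5%. GRK2+/- heart 2 was the highest for 8 of the 12, against 18.5% of all genes. The median over the 12, relative to the wild-type mean of each gene, was 0.14, 0.28 and 0.04 in GRK2+/- hearts 1, 2 and 3 and 0.02, 0.17 and -0.20 in wild-type hearts 1, 2 and 3. Wild-type heart 2 therefore lay above GRK2+/- hearts 1 and 3, and the genotypes overlapped. For the 25 collagens dimmer than the median gene the same medians lay between -0.07 and 0.02, and wild-type heart 3 was the lowest for 3.

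**Figure D3:**
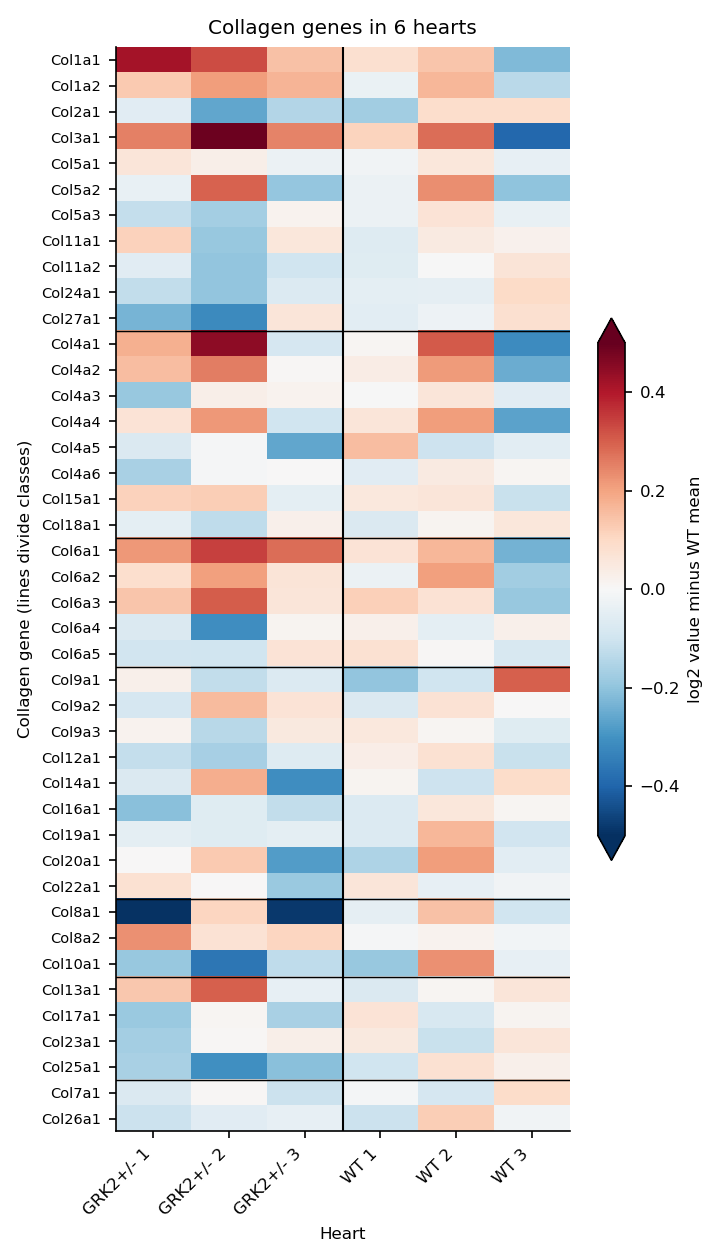
Log2 values of the 42 collagen genes (rows, in classes) in the 6 hearts (columns), each minus the wild-type mean of the gene; red is higher and blue lower, as the colour bar shows. Wild-type heart 3 is blue, and GRK2+/- heart 2 red, across Col1a2, Col3a1, Col4a1, Col4a2 and the first 3 type VI genes.

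The positive differences of the main chains were smaller without that wild-type heart. The median difference of the 12 was 0.15 with all hearts, with 11 above 0 (10 after quantile normalisation and 9 with the trend on gene span taken out), and 0.03 without wild-type heart 3, with 10 above 0. Left out in turn, the other 5 hearts gave medians of 0.08 to 0.23. Without wild-type heart 3, Col1a1 differed by 0.19 (limma unadjusted p = 0.0862), Col6a1 by 0.16 (0.0804), Col3a1 by 0.13 (0.222) and Col1a2 by 0.10 (0.274). Col4a1 and Col4a2 then differed by 0.02 and 0.01, and Col6a2 and Col6a3 by 0.03 and 0.07. No collagen was then higher at an unadjusted p under 0.05, while Col25a1 remained lower, at -0.21 (unadjusted p = 0.0411 in limma). Over all 18193 genes, 712 were then higher at that level, against 1146 with all hearts, so fewer genes of any kind were called. Without wild-type heart 2, in contrast, 5 collagens were higher at that level, among them Col3a1 at 0.47, beside 854 of all genes. Without GRK2+/- heart 2, 0 collagens were higher at that level, beside 767 of all genes. The unadjusted p in limma was then 0.0506 for Col1a1, 0.0624 for Col6a1 and 0.0559 for Col25a1. Col1a1 also missed the level without GRK2+/- heart 1 (0.24, limma unadjusted p = 0.0773), and Col25a1 without wild-type heart 2 (-0.19, limma unadjusted p = 0.0522).

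**Figure D4:**
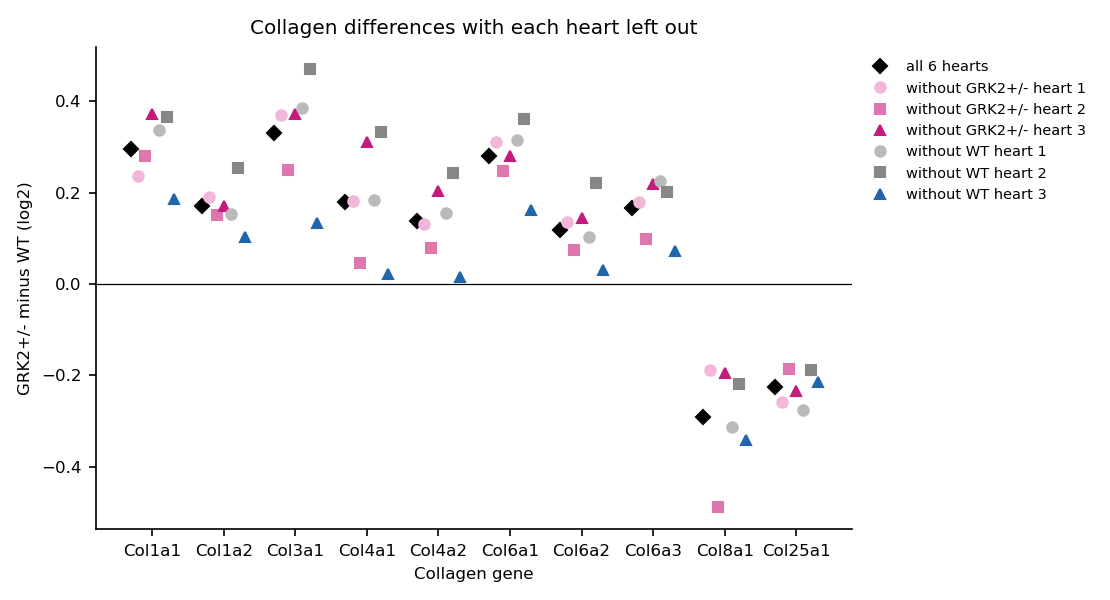
Difference between GRK2+/- and wild-type hearts (log2, y axis) for 10 collagen genes, with all 6 hearts (black) and with each heart left out in turn. Omission of wild-type heart 3 (blue triangles) gives the lowest value for each of the first 8 genes.

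Positive differences were mostly found among the brighter members. Of the 17 collagens at or above the median level of the gene table (7.24), 11 had a difference above 0, with a median of 0.06. Of the 25 below it, 4 did, with a median of -0.06. Over all genes the same split held in milder form, with 52.6% above 0 among the brighter genes (median 0.01) and 34.5% among the dimmer ones (median -0.04), and centring each array on its median left the counts at 11 of 17 and 5 of 25. They were 10 and 6 after quantile normalisation and 9 and 4 once a trend of the differences with gene span was taken out. Leaving out wild-type heart 3 brought the median of the brighter 17 to 0.008, and leaving out GRK2+/- heart 2 to 0.03. Brighter members with differences below 0 were Col8a1, Col25a1, Col27a1, Col16a1, Col4a5 and Col20a1. A value near the bottom of the scale carries little signal over background.

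**Figure D5:**
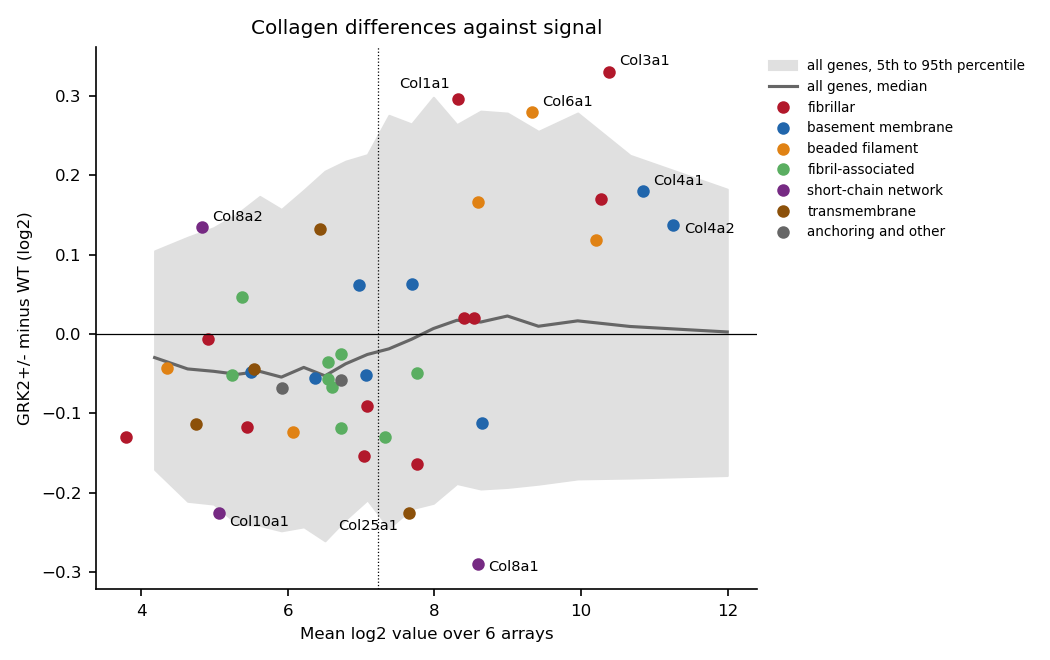
Difference between GRK2+/- and wild-type hearts (log2, y axis) against the mean log2 value over the 6 arrays (x axis) for the 42 collagen genes (points, by class), over the median (line) and the 5th to 95th percentile (grey band) of all named genes; the dotted line marks the median level of 7.24. Col3a1, Col1a1, Col6a1 and Col8a2 lie above the band, Col8a1 lies well below it, and Col10a1 and Col25a1 lie just past its lower edge.

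Probe sets of the same gene mostly pointed the same way. Of 27 genes with several probe sets, all pointed the same way for 19, and 31 of the 40 further probe sets had the sign of the chosen one. Tested as 45037 single probe sets, 9 of the 82 had an unadjusted p under 0.05 (4 higher, 5 lower; background 12.8%), 15 did not overlap between groups (background 17.9%) and 0 passed an adjusted p of 0.05 with limma. The 4 higher ones belonged to type I and type VI collagen: 2 for Col1a1, 1 for Col1a2 and 1 for Col6a1. The 5 lower ones read Col25a1, Col5a3, Col8a1, Col22a1 and Col4a3, and for the last 4 genes they were dimmer than the chosen probe set.

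Genes that fold, cut, join and bind collagen had differences in both directions, and 0 of them passed an adjusted p of 0.05 with limma. The counts in each list are to be read beside the 6.30% of all genes that were higher and 7.70% that were lower at an unadjusted p under 0.05, and the lists were chosen with results known. Of 18 measured genes of chain folding and hydroxylation, 1 was higher and 1 lower (11.1% in all, median 0.03). They were the lysyl hydroxylases Plod2 (0.19 ± 0.08) and Plod3 (-0.19 ± 0.06), next to P3h4, a partner of lysyl hydroxylation (0.26 ± 0.12). Serpinh1, the collagen chaperone, differed by -0.02 ± 0.10, the prolyl hydroxylase subunit P4ha1 by -0.15 ± 0.09 and the collagen-binding Sparc by -0.10 ± 0.09, all with overlap. Of 14 genes of procollagen cleavage and cross-linking, 3 were higher and 1 lower (28.6% in all, median -0.02). Higher were the procollagen protease Adamts3 (0.22 ± 0.07), the peroxidasin Pxdn, which cross-links type IV collagen (0.33 ± 0.12), and the lysyl oxidase Loxl1 (0.20 ± 0.08). The transglutaminase Tgm2 differed by -0.37 ± 0.07 (limma unadjusted p = 4.50e-04, adjusted p = 0.114), in all 6 of its probe sets. With a prior that follows the level its adjusted p was 0.0339, the one setting in which a named gene of these lists passed. By contrast, Lox and the procollagen protease Bmp1 differed by 0.09 ± 0.08 and -0.02 ± 0.08. Loxl1 kept an unadjusted p under 0.05 in 11 of 17 alternatives, Plod2 in 13 and Pxdn in 15, and the limma p of Loxl1 reached 0.715 with its most variable probe set.

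Of 12 collagen receptors and uptake genes, 2 were higher and 2 lower at that level (33.3% in all, against 14.0% of all genes, median -0.09). Higher were the collagen-sensing kinase Ddr2 (0.15 ± 0.06) and the endocytic receptor Mrc2 (0.20 ± 0.07). Adgrg1, an adhesion receptor for type III collagen, differed by -0.37 ± 0.12 and the integrin Itga2 by -0.19 ± 0.07. The integrin Itga1 differed by -0.20 ± 0.12, with its other probe set pointing the other way. Ddr2 kept an unadjusted p under 0.05 in 8 of 17 alternatives, Mrc2 in 12 of 17, with a limma p of up to 0.9, Itga2 in 10 of 15 and Adgrg1 in 16 of 17. Fibril-binding matrix proteins had 2 of 18 higher and 3 lower (27.8% in all, median -0.03), with asporin (Aspn, -0.46 ± 0.10) and elastin (Eln, -0.34 ± 0.11) lower, thrombospondin Thbs2 higher at 0.36 ± 0.10, and Postn (-0.15 ± 0.13) and Fn1 (-0.05 ± 0.11) overlapping. Of 18 partners of type IV collagen in the basement membrane, 6 were higher (33.3%, against 6.30% of all genes) and 0 lower (median 0.06), led by the laminin chains Lamb1 (0.41 ± 0.11), Lama4 (0.22 ± 0.08, with its other probe set pointing the other way) and Lamb2 (0.22 ± 0.08). If each gene was read by its most variable probe set, that median was -0.02. Lamb1 kept its unadjusted p under 0.05 in all 17 alternatives, and Lama4 and Lamb2 each in 15.

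Of 19 measured genes of signalling that drives collagen genes, 4 were higher and 1 lower at an unadjusted p under 0.05 (26.3% in all, against 14.0% of all genes). Their median was 0.14, with 15 above 0 (78.9%, against 43.5% of all genes), and 7 did not overlap between groups (36.8%, against 19.1%). Ccn2, the connective tissue growth factor induced by TGF-beta, differed by -0.35 ± 0.10 (limma unadjusted p = 0.00518, adjusted p = 0.201), while Smad4, the shared signal carrier of the TGF-beta family, and the growth factor Pdgfa were higher by 0.31 ± 0.09 and 0.37 ± 0.11. The ligands Tgfb1, Tgfb2 and Tgfb3 differed by 0.0025 ± 0.07, 0.22 ± 0.10 and 0.06 ± 0.08, and limma gave each an unadjusted p above 0.05.

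Markers of cells that make collagen were read in the same hearts. Of 14 fibroblast markers, of which 5 also stand in the matrix and signalling lists, 3 were higher and 1 lower at an unadjusted p under 0.05, where 6.30% of all genes were higher and 7.70% lower (median 0.08), and their mean log2 level ranged from 9.58 to 9.73 in GRK2+/- and from 9.59 to 9.69 in wild-type hearts. Wild-type heart 3 stood at a median of 0.07 above the wild-type mean for these markers. For 10 endothelial markers it stood at -0.11, the lowest of the 6 hearts. It was also the lowest for leukocyte markers (-0.12) and for smooth muscle and pericyte markers (-0.04). Endothelial markers had 2 of 10 higher (20.0%) and 0 lower (median 0.12; 9.22 to 9.37 against 9.05 to 9.24). Smooth muscle and pericyte markers had 4 of 11 higher (36.4%) and 0 lower (median 0.15), with ranges of 9.69 to 9.83 against 9.59 to 9.64, and epicardial markers had 3 of 7 higher (42.9%) and 0 lower (median 0.16), with 6.21 to 6.25 against 5.97 to 6.07. Their part in the collagen values was not tested.

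The remaining marker lists held at most 2 such genes each, where 6.30% of all genes were higher and 7.70% lower. The share of higher genes among leukocyte and cardiomyocyte markers still lay above that of all genes. So did the share of lower genes among valve and cartilage markers and among atrial markers. These shares were not tested. Leukocyte markers had 1 of 7 higher (median 0.13), valve and cartilage markers 1 of 8 lower (0.01), atrial markers 2 of 8 lower (0.08) and cardiomyocyte markers 1 of 10 higher (-0.0042), while markers of Schwann cells (4 genes, 0.03), adipocytes (4 genes, -0.01) and skeletal muscle (6 genes, -0.01) had none. The atrial marker Nppa, read by 1 probe set, differed by -1.20 ± 0.27 without overlap (limma unadjusted p = 0.00148, adjusted p = 0.150). Of the 8 atrial markers, 5 had a difference above 0. The scale has no true zero. Of the 6 skeletal muscle markers 3, and of the 4 adipocyte markers 3, lay below the 25th percentile of all levels. As a sign of RNA quality, beta-actin read higher at its 3′ than its 5′ end, by 0.98 ± 0.08 log2 units in GRK2+/- hearts and by 0.78 ± 0.04 in wild-type hearts (SD, n = 3 each), with 0.74 in wild-type heart 3. For Gapdh the same measure was 0.03 ± 0.02 in the GRK2+/- group and 0.005 ± 0.04 in controls, and for pyruvate carboxylase 1.77 ± 0.07 and 1.75 ± 0.05. The part of RNA quality in the results was not tested.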

How the data were processed

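The deposited table holds log2 probe set values of 6 arrays, relative brightness after summarising, and per the submitters' processing notes the authors used RMA and limma. Their versions were not stated, nor was it stated if the 6 arrays were normalised as 1 set. Array medians ranged from 6.25 to 6.31. Control probe sets were left out, leaving 45037, of which 34945 had 1 gene symbol in the platform annotation (34741 updated through Entrez identifiers in the RefSeq table), giving 18193 genes. Differences came from limma (version 3.58.1, R 4.3.3; lmFit, eBayes, two-sided) with Benjamini-Hochberg adjustment over all genes; the threshold was 0.05. The number of arrays limits the precision. The fit was tested on simulated data. Each array is a separate heart, per the labels.

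The members, classes and lists were chosen with earlier results of these data known, and no list was tested. Values in every heart are given for members with an unadjusted p under 0.05, for 12 main chains and for the 3 largest differences in each direction. Of each matrix list the 3 genes with the smallest p and some fixed genes are named. Other cell types' markers are given as counts, apart from Nppa. Itga11 was not analysed here. Alternatives covered normalisation, centring, probe set choice, filters on dim genes, prior, array weights, gene span, replicate number and each heart left out.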

Additional observations from a re-analysis of the deposited data

How the results depend on the processing

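No collagen gene passed an adjusted p of 0.05 in limma under any of the 17 alternatives. Col1a1, Col6a1 and Col25a1 had an unadjusted p under 0.05 in 14, 15 and 15 of them. The count of collagens at that level, 3 as reported, was 5 when the probe sets of a gene were averaged. It was also 5 with the most variable probe set. In both settings the share of collagens at that level stayed below the share of all genes. With 1 heart left out the count was 1 to 5. The collagen share was then above that of all genes, by a small margin, only without GRK2+/- heart 3 or wild-type heart 2. For single probe sets the count of 9 became 3 to 10 with 1 heart left out. Over all genes, same-numbered hearts did not deviate together (correlations -0.183, -0.005 and 0.016). With 3 hearts per group this cannot decide if numbers pair them, least of all for the collagens. With the replicate number as a block the count of collagen genes was 6 (4 higher, 2 lower), or 14.3% against 12.5% of all genes. Col3a1 and Col4a1 then reached that level (limma unadjusted p = 0.0148 and 0.0415, adjusted p = 0.303 and 0.377). Among genes at or above the median level, class medians were 0.0637 for all collagens, 0.0955 for fibrillar and 0.1009 for basement membrane collagens.

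List medians that moved were as follows. Folding genes gave 0.0592 with the most variable probe set, 0.0048 above the median level, 0.0088 above the 25th percentile and 0.0118 to 0.0471 with 1 heart left out. Receptors gave -0.0441 with mean probe sets, -0.0136 above the median level and -0.0969 to -0.0406 with 1 heart left out. Fibril-binding proteins gave -0.0676 to 0.0141 with 1 heart left out. Basement membrane partners gave -0.0198 with the most variable probe set, 0.2013 above the median level and 0.1639 above the 25th percentile. Cardiomyocyte markers gave 0.0099 with quantile normalisation and 0.0124 with the gene span trend taken out. Atrial markers gave -0.0089 with mean probe sets, -0.0351 with the most variable, -0.6105 above the median level and -0.0223 above the 25th percentile. Epicardial markers gave 0.2344 with the most variable probe set, valve markers -0.0977 above the median level and skeletal muscle markers -0.0938 above the 25th percentile. With 1 heart left out, valve markers gave -0.0531 to 0.0276, leukocyte markers 0.0141 to 0.1214, Schwann cell markers -0.0407 to 0.077 and skeletal muscle markers -0.0641 to 0.0139.

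Differences of some single genes turned sign, and the cause was not tested. Some of these lay near 0 in the main fit, but Itga1 (-0.20), Col12a1 (-0.12) and Sparc (-0.10) lay further from it. The sign of the main fit was shared by 1 of 2 probe sets of Itga1, 3 of 4 of Col12a1 and 2 of 3 of Sparc. With quantile normalisation Col5a2 gave -0.0010 and Tgfb1 -0.0175. With the gene span trend taken out Col5a1 gave -0.0114 and Col5a2 -0.0079. With mean probe sets Bmp1 gave 0.0286, Itga1 0.0788, Fn1 0.0237 and Tgfb1 -0.0982. With the most variable probe set Col12a1 gave 0.0295, Sparc 0.1386, Bmp1 0.0030 and Tgfb1 -0.1989, the last with a limma unadjusted p of 0.0345. With 1 heart left out in turn, the range was -0.1155 to 0.1364 for Col5a2, -0.0873 to 0.0233 for Col4a3, -0.0727 to 0.1657 for Col4a4, -0.1913 to 0.0549 for Col14a1, -0.0081 to 0.112 for Col9a2, -0.0918 to 0.0746 for Serpinh1, -0.0634 to 0.0442 for Bmp1, -0.1691 to 0.0697 for Fn1, -0.0399 to 0.0533 for Tgfb1 and -0.0057 to 0.0909 for Tgfb3.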
